A study of Lactuca sativa with 18 samples.

Results

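The 100 genes whose transcript levels varied least were picked out among midrib samples from the leaves of 3 cultivars of romaine lettuce (Lactuca sativa), taken fresh and after cold storage. The cultivars were Tall Guzmaine (TG), described as browning to a high degree, Parris Island Cos (PC), which browns to a low degree, and Clemente (CL), of medium browning and selected from a cross between the other two. All heads were cooled after harvest, trucked cold to the laboratory and kept at 5 °C for a further day, and their midribs were then cut into short pieces by hand. Pieces frozen on day 0 or after 3 days of storage at 5 °C gave 6 groups of 2 libraries each, all from cut and previously chilled tissue, with no uncut midrib among them. The labels do not say whether the libraries of a group came from separate heads.

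The level of a gene in a library is given as CPM, counts scaled to a common library total and further scaled by trimmed mean of M-values (TMM) factors that adjust for differences in library composition. L stands for log2(CPM + 1). A gene was eligible if its mean L over the 12 libraries lay between 5 and 8, which 5212 of 46150 GeneIDs did. The members are the 100 eligible genes with the smallest range, the highest L minus the lowest L over the 12 libraries. These same values chose the members, so their small range is a description and not a finding, and no test was made of it.

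Genes of near-constant transcript level are used as reference genes: quantitative PCR measures a transcript relative to a reference, and any change in the reference is carried into the result. Customary plant references encode actin, tubulin, ubiquitin, elongation factor 1-alpha or glyceraldehyde-3-phosphate dehydrogenase, basic parts of the cell that nearly every tissue needs. Their constancy depends on the tissue and the treatment, which is why candidate references are checked anew for conditions such as cutting and storage. Enzymatic browning is the oxidation of phenolic compounds to quinones and dark polymers in wounded tissue. Work on it compares cultivars and storage times, so a reference must hold across both.

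All 100 members matched the name table of NCBI assembly Lsat_Salinas_v11 by GeneID, and all 100 are protein coding there. The same table lists 5150 of the 5187 eligible genes that it matched as protein coding. It gives each member only a locus symbol (LOC and the GeneID), without a description, so no role is stated for any member, and the customary references, browning genes and markers of midrib tissue were not analysed here. No member stood on more than 1 row of the files, against 18 of the 5212 eligible genes. No pair of members were direct neighbours in the genome, and LOC111907745 and LOC111907748 were separated by a single gene. Sequences were not used here, so reads shared between a member and a near-identical gene copy were not examined.

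The 12 libraries held 35603537 to 59153901 counts, and the TMM factors ran from 0.785 to 1.17. The low factors belonged to the CL libraries of day 0 and the high ones to the PC libraries of day 0, so that on the log2 scale the factors of these groups differed by 0.54. CPM is a share of the library, and a constant share is not a constant amount of RNA per cell. In such bulk samples, fewer cells of a type and less RNA per cell cannot be told apart.

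The range of L was between 0.25 and 0.43 in the members, with a median of 0.37. In CPM, the highest library of a member was 1.19 to 1.36 times its lowest. Among the other 5112 eligible genes the median range was 1.44, the quartiles were 0.95 and 2.33, and the widest range was 11.74. A range of at most 0.5 was found in 186 eligible genes (3.57%), of at most 1 in 1530 (29.4%) and of at most 2 in 3568 (68.5%). Within the members, 10 had a range of at most 0.3, 35 of at most 0.35 and 77 of at most 0.4. The limit fell where ranges lay close together. The members just inside it were LOC111881848, LOC111888483 and LOC111910445, each with a range of 0.43, and the genes just outside were LOC111918599, LOC111880285 and LOC111920703, also at 0.43.

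**Figure D1:**
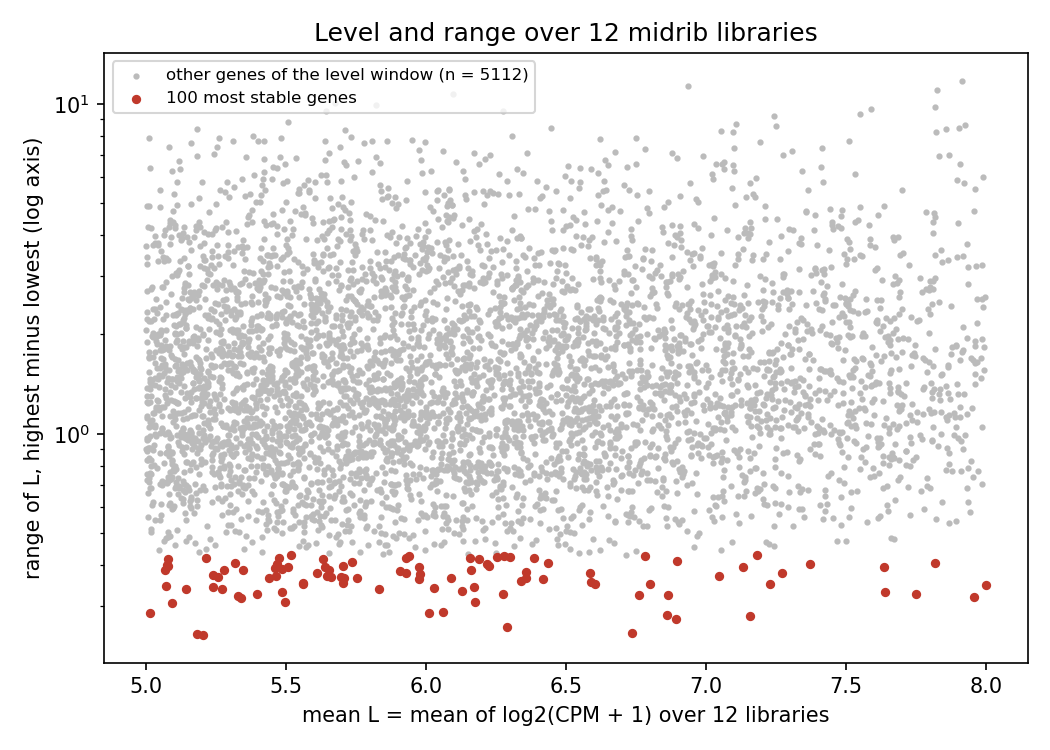
Mean level against range for the 5212 eligible genes. The horizontal axis is mean L, the vertical axis is the range of L over 12 libraries on a log axis, and each point is a gene. The 100 members (red) lie along the lower edge at all levels, with ranges of 0.25 to 0.43, below the other 5112 genes (grey).

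The members were spread over the whole span of levels. Their mean L ran from 5.01 for LOC111892944 to 8 for LOC111891639, with a median of 5.96 against 6.08 in the other eligible genes. They made up 2.35% of the genes with mean L from 5 to 5.5 and 1.57% of those from 7.5 to 8, with the lowest share, 1.21%, from 7 to 7.5. These levels are not divided by transcript length and do not rank genes by transcript number. Single members had 1025 to 14873 counts in a library. Together the members held 0.597% to 0.896% of the counts of a library, the lowest share in CL day 0 replicate 1 and the highest in PC day 0 replicate 2. After TMM scaling their summed level was 7453 to 7911 CPM.

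The gene of smallest range was LOC111920970. Its levels were 34.3 and 33.8 CPM in TG on day 0, 37.1 and 39.3 in TG on day 3, 33.6 and 32.9 in PC on day 0, 35.4 and 38.9 in PC on day 3, 38.1 and 36.4 in CL on day 0, and 36.2 and 34.7 in CL on day 3. The highest and lowest libraries differed 1.19-fold, and the mean was 35.9 ± 2.11 CPM (SD over 12 libraries). Both TG and both PC libraries of day 3 were above those of day 0 in the same cultivar, while both CL libraries of day 3 were below.

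LOC111882494 lay at nearly the same level, with a mean of 35.4 ± 2.24 CPM (SD, n = 12) and a range of 0.25. Its libraries held 38.1 and 36.2 CPM in TG on day 0, 34.3 and 32.4 in TG on day 3, 32.4 and 33.2 in PC on day 0, 38.6 and 33.8 in PC on day 3, 38.4 and 35.3 in CL on day 0, and 36.5 and 35.0 in CL on day 3. Here the TG libraries of day 3 lay below and the PC libraries of day 3 above those of day 0, and the days overlapped in CL.

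LOC111900496 was at 105.8 ± 6.69 CPM (SD, n = 12). Its libraries read 108 and 99.2 CPM in TG on day 0, 114 and 114 in TG on day 3, 108 and 97.8 in PC on day 0, 98.4 and 111 in PC on day 3, 95.5 and 113 in CL on day 0, and 107 and 104 in CL on day 3. Its lowest and highest values of day 0 were the 2 CL libraries of that day. Differences between group means made up 31.1% of its variance over the 12 libraries. LOC111917700 was alike in this, with 29.5% between groups, a mean of 77.4 ± 4.71 CPM and extremes of 70.6 CPM in TG day 0 replicate 2 and 84.7 CPM in CL day 3 replicate 1.

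LOC111896910 had the lowest coefficient of variation of the members, 5.5%, at 117.8 ± 6.48 CPM (SD, n = 12). Its lowest library was PC day 3 replicate 1 at 106 CPM and its highest CL day 0 replicate 2 at 128 CPM. LOC111900232 came next at 5.59%, but with a different pattern: 82.2% of its variance lay between groups. The values were 136 and 127 CPM in TG on day 0, 140 and 143 in TG on day 3, 132 and 142 in PC on day 0, 138 and 145 in PC on day 3, 147 and 145 in CL on day 0, and 153 and 155 in CL on day 3. All 4 CL libraries were above all libraries of TG and PC, by a narrow margin.

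LOC111916484 had a range of 0.28 and read 123 and 110 CPM in TG on day 0, 121 and 113 in TG on day 3, 107 and 102 in PC on day 0, 119 and 108 in PC on day 3, 124 and 120 in CL on day 0, and 121 and 116 in CL on day 3. PC was lowest on day 0, and the cultivars overlapped on day 3. The remaining genes among the 10 of smallest range were LOC111915631 at 63.5 ± 4.01 CPM, LOC111892944 at 31.4 ± 2.20 CPM and LOC111904032 at 65.9 ± 5.19 CPM (SD, n = 12). LOC111892944 lay close to the lower limit on level, with a mean L of 5.01.

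**Figure D2:**
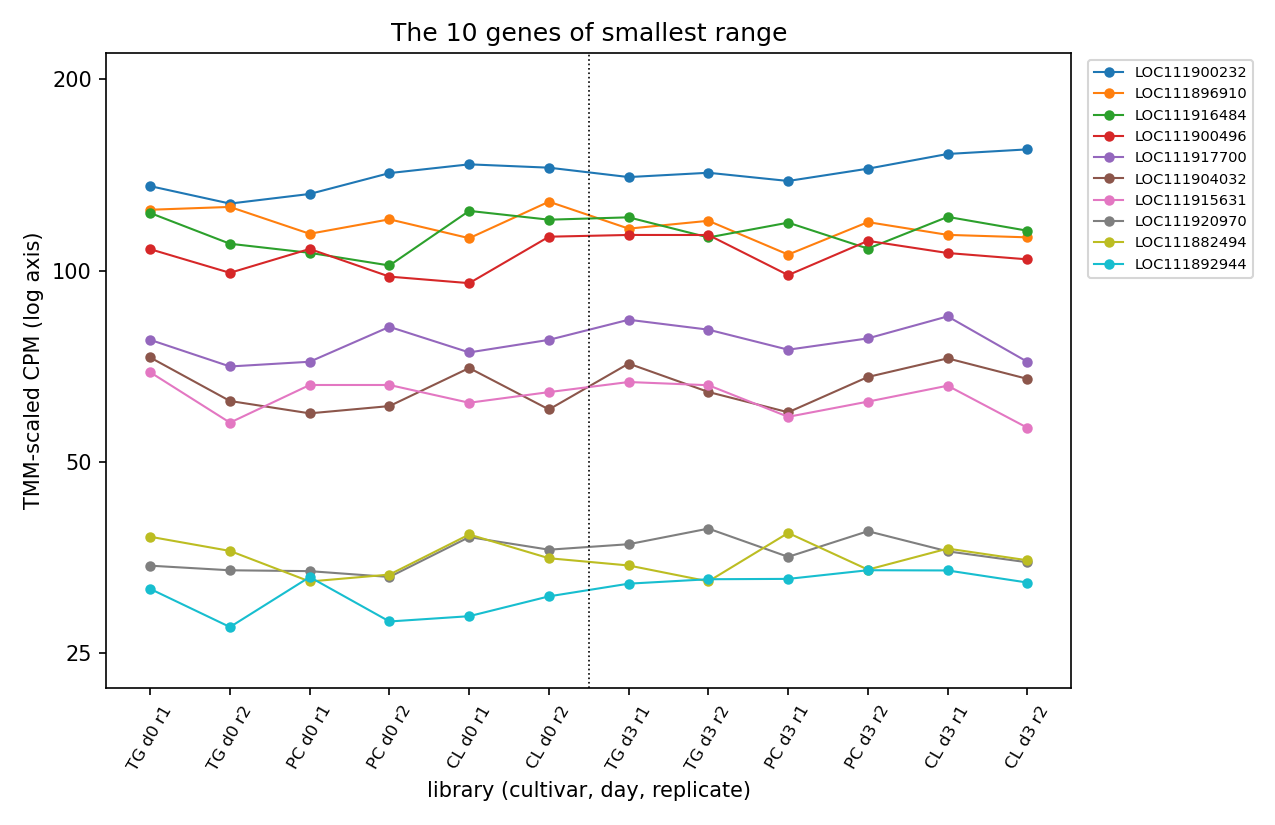
Levels of the 10 members of smallest range in each library, as TMM-scaled CPM on a log axis. The horizontal axis gives cultivar, day (d0, d3) and replicate (r1, r2), a dotted line parts the days, and each coloured line joins the 12 values of a gene. No line moves by more than 1.23-fold between its lowest and highest library.

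The spread of the members was compared with the spread between replicates. The SD of L within groups, pooled over the 6 groups, was 0.094 at the median over members and 0.19 over the other eligible genes. Counting error alone, taken on halved counts because most large values in the files are even, which would arise if the mates of a pair counted separately, came to a median SD of 0.039 in members and 0.038 in the others. The replicate SD was thus 2.32 times the counting SD at the median of the members and 5.07 times in the others. The range of the 6 group means had a median of 0.26 in members and 1.17 in the others. At the median, members thus had the smaller values both within and between groups, as the rule required.

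A median of 61.6% of the members' variance over the 12 libraries lay between groups, against 90.5% in the other eligible genes. With 6 groups and 12 libraries, 45.5% would fall between groups on average in the absence of any group difference, and these values also chose the members, so the share is a description. Among members this share ran from 9.49% to 96.3% and was highest for LOC111912553. Its libraries read 87.4 and 85.3 CPM in PC on day 0 and 66.0 and 64.9 CPM in PC on day 3, with its 8 TG and CL libraries between 69.5 and 79.9 CPM. LOC111906467 had 94.8% between groups, with 69.8 and 69.4 CPM in CL on day 0 against 51.9 to 56.6 CPM in the 4 TG libraries.

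Differences between day 3 and day 0 were small in the 100 genes in each cultivar and went in both directions. The rule limited the range over these same libraries, so their small size is a description. The difference in mean L, day 3 minus day 0, was positive for 51 members in TG, 50 in PC and 43 in CL. Its absolute median was 0.090 in TG, 0.097 in PC and 0.12 in CL, against 0.49, 0.65 and 0.47 in the other eligible genes. An absolute difference over 0.2 was found for 16 members in TG, 15 in PC and 19 in CL, against 78.9%, 84.6% and 77.2% of the others. The sign was positive in all 3 cultivars for 23 members, against 23.9% of the other eligible genes, and negative in all 3 for 23 members, against 34.6%. The lowest values were -0.37 for LOC111909443 in TG, -0.39 for LOC111912553 in PC and -0.31 for LOC111913121 in CL. The highest were 0.29 for LOC111910307 in TG, 0.32 for LOC111921090 in PC and 0.29 for LOC111906748 in CL.

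In 6 members the 6 libraries of day 0 and the 6 of day 3 did not overlap. LOC111903123 was higher on day 3, with 45.6 to 49.8 CPM against 37.7 to 42.2 CPM on day 0, and 9.52% of the eligible genes were likewise higher without overlap. LOC111895465, LOC111905344, LOC111908708, LOC111912553 and LOC111909443 were lower on day 3, as were 15.7% of the eligible genes. LOC111895465 went from between 74.3 and 87.2 CPM on day 0 to between 65.9 and 71.2 CPM on day 3. In LOC111909443 the nearest libraries of the days were PC day 0 replicate 2 at 59.0 CPM and CL day 3 replicate 1 at 57.0 CPM. The ranks of these 6 genes by range were 67, 75, 86, 88, 94 and 97 of the 100.

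Cultivars were set apart without overlap, 4 libraries against 4 over both days, in some members, and brackets give the share of eligible genes. Members fell furthest below that share for CL above PC and for CL below TG. In the other directions they lay nearer to it, and the difference was not tested. TG lay above PC in 4 members (5.3% of eligible genes), LOC111906895, LOC111893327, LOC111913051 and LOC111888483, and below PC in LOC111881848 alone (1.65%). CL lay above PC in LOC111900232 and LOC111902581 (11.9%) and below PC in LOC111907745 and LOC111917993 (3.36%). CL lay above TG in 5 members (6.41%), LOC111900232, LOC111919361, LOC111892920, LOC111902581 and LOC111906467, and below TG in LOC111918212 (3.97%). The genes in these lists were named after their values were seen. LOC111900232 and LOC111902581 were highest in CL against both parents, the latter at 150 to 158 CPM in CL against 120 to 147 CPM in TG and PC.

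**Figure D3:**
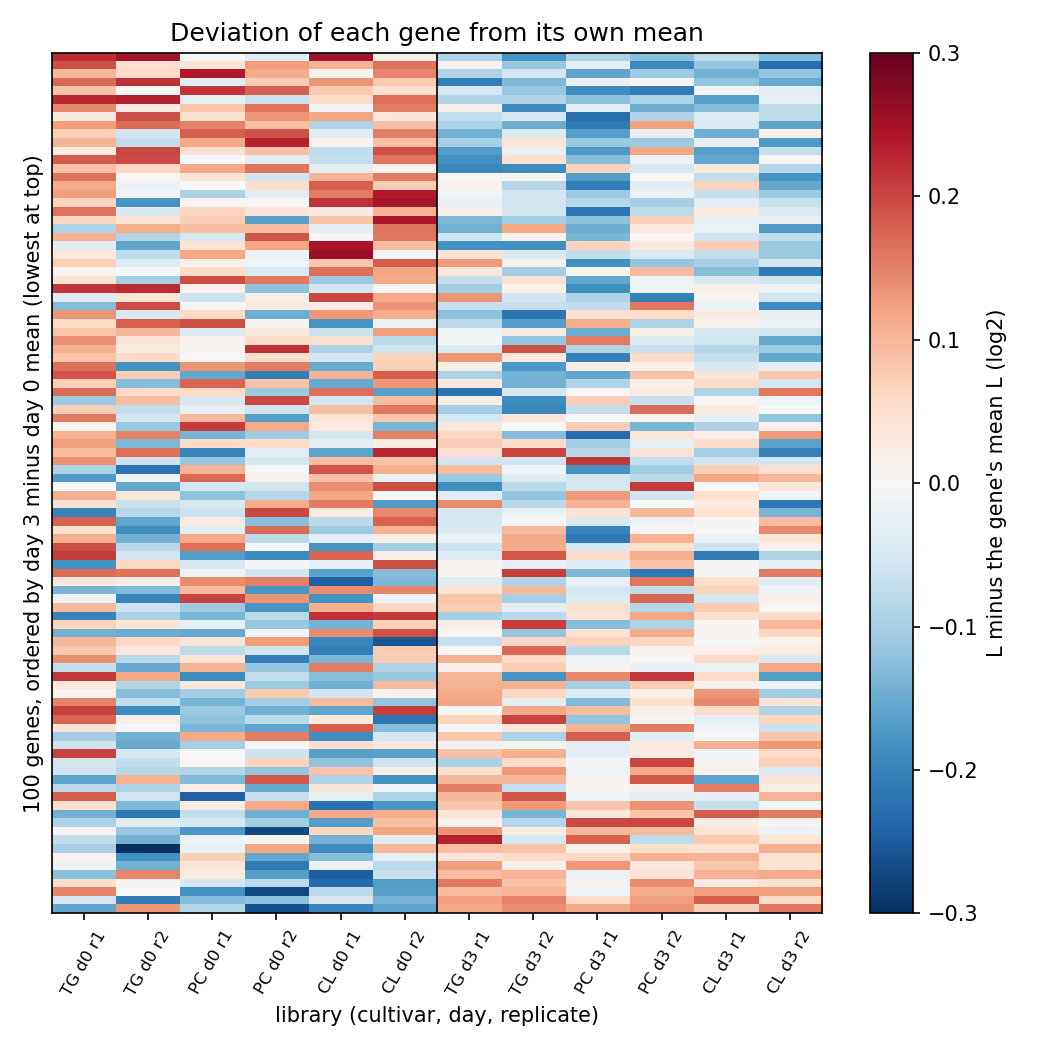
Deviation of each member from its own mean in each library. Rows are the 100 members ordered by their day 3 minus day 0 mean, columns are the libraries by cultivar, day (d0, d3) and replicate (r1, r2), and colour gives L minus the gene's mean L, from -0.3 (blue) to 0.3 (red). The rows at the top are redder on day 0 and those at the bottom redder on day 3. No cell exceeds 0.3 in size.

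The extremes of the members were distributed over all libraries. The highest value of a member fell on day 0 in 70 cases and on day 3 in 30, and the lowest on day 0 in 54 and on day 3 in 46. In the other eligible genes the highest value lay on day 0 in 72.6% and the lowest in 63.0%. TG day 0 replicate 1 was the highest library for 16 members, and PC day 3 replicate 1 the lowest for 17. Only LOC111910259 had its highest and its lowest value in the same group, TG day 0. The median deviation of the members in a library ran from -0.048 in TG day 0 replicate 2 to 0.076 in CL day 0 replicate 2, against -0.21 in PC day 0 replicate 2 to 0.18 in CL day 0 replicate 1 in the other eligible genes.

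A principal component analysis of L over the members placed 23.9% of their variance on the first component, 15.3% on the second and 13.8% on the third. In the other eligible genes these shares were 48.9%, 34.1% and 8.84%. All 6 libraries of day 0 had negative scores on the members' first component, from -0.84 to -0.39, and all 6 of day 3 had positive scores, from 0.38 to 0.66. On the second component, CL day 0 had scores of -0.95 and -0.51 and PC day 0 scores of 0.50 and 0.74. Day 0 and day 3 thus still parted along the members' first component, and CL and PC of day 0 along the second. The other eligible genes parted in the same way. Their first component ran from -74.9 to -5.1 on day 0 and from 21 to 35.7 on day 3. On their second, CL day 0 had -55.4 and -54.2 and PC day 0 had 16.4 and 44.1.

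Ratios between genes within a library do not depend on the scaling factor, which cancels. Over the 4950 pairs of members, the SD of the log2 ratio of counts over the 12 libraries had a median of 0.16 and ran from 0.055 to 0.29. Over pairs of other eligible genes the median was 0.74. Averaged over its pairs with the other 99 members, the SD was lowest for LOC111896910, at 0.13. It was 0.14 for LOC111876268, LOC111915631, LOC111885103 and LOC111900496, which followed, and highest for LOC111906748, at 0.21. LOC111876268 was only 58th by range, and its lowest value, 41 CPM in PC day 3 replicate 1, lay in the library that was lowest for the most members. The rule chose members on the same counts, so this too is a description.

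Whether small ranges recurred was read in libraries that had no part in the choice. When 100 genes were chosen by the same rule in the 6 replicate 1 libraries alone, their median range there was 0.24, and in the 6 replicate 2 libraries it was 0.44. The other eligible genes had a median of 1.26 in replicate 2, and 99 of the 100 chosen genes lay below it. Of the chosen genes 66 were in the lowest 10% by range. In the opposite direction, genes chosen in replicate 2 had a median range of 0.25 there and of 0.39 in replicate 1, where 100 of 100 lay below the median of the others, 1.18, and 71 in the lowest 10%. The lists of replicate 1 and replicate 2 shared 23 genes of 100, where each list made up 1.94% and 1.90% of its eligible genes. Between replicates of the same groups, small ranges recurred as a class, and most single places on the list did not. The replicate 1 and replicate 2 libraries held the same 6 groups, and the labels do not say whether they came from separate heads. A gene without group differences would thus have a small range in either set. For that reason this reading cannot show whether small ranges would recur in other heads or conditions.

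The same reading was made across days. Genes chosen in the 6 libraries of day 0 had a median range of 0.23 there and 0.28 on day 3, against 0.45 in the others on day 3, with 89 below that median and 31 in the lowest 10%. Genes chosen on day 3 had a median range of 0.12 there and of 0.63 on day 0, against 1.12 in the others, with 84 below that median and 29 in the lowest 10%. The widest day 0 range among them was 3.11. The lists of day 0 and day 3 shared 8 genes. Only 13 of the genes chosen on day 3 were among the 100 members, against 38 of those chosen on day 0. The difference between these shares was not tested.

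**Figure D4:**
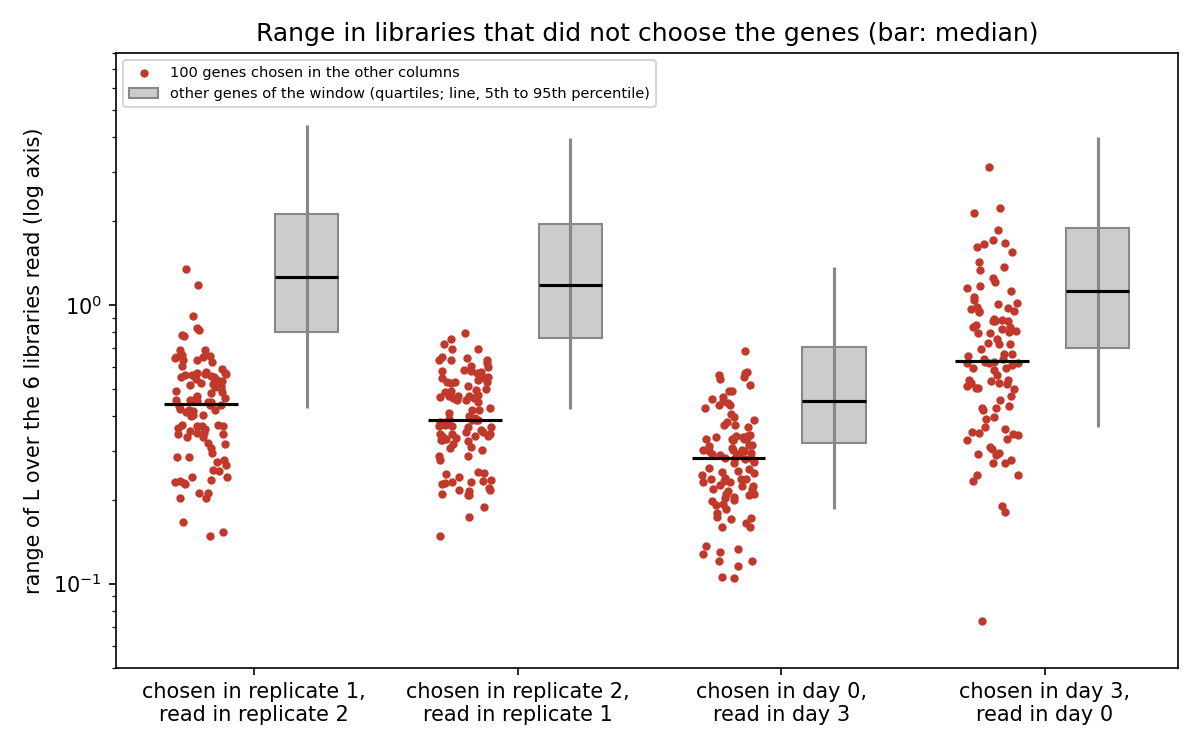
Range of L in libraries that did not choose the genes, on a log axis. For each of 4 choices, red points are the 100 chosen genes and the grey box holds the quartiles of the other eligible genes, with a line from the 5th to the 95th percentile and black bars at the medians. The chosen genes have the lower median in all 4, for example 0.44 against 1.26 in replicate 2 and 0.63 against 1.12 on day 0.

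Each cultivar was also left out of the choice in turn and its mean level then compared with the mean of the others. For 100 genes chosen in PC and CL, the mean L of TG was off by an absolute median of 0.11, against 0.18 in the other eligible genes. With PC left out the offset was 0.14 against 0.29, and with CL left out 0.14 against 0.30. The largest offsets were 0.75 in TG, 0.60 in PC and 0.62 in CL. Of the genes chosen without a cultivar, 47 were members when TG was left out, 41 without PC and 42 without CL. Range within the cultivar left out had a median of 0.36 in TG, 0.38 in PC and 0.32 in CL, against 0.75, 0.92 and 0.67 in the other eligible genes. The widest was 1.97, in PC.

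The members were next set against the calls of the whole table, from an edgeR quasi-likelihood fit to 21757 genes with Benjamini-Hochberg adjustment at 0.05. The test for any difference among the 6 groups called 61.8% of all genes and 0 of the 100 members. By an unadjusted p under 0.05 the number was also 0, and DESeq2 called 7 members. The rule used these same group differences, so the count follows from the choice. Between cultivars on day 0, the shares of genes called were 30.4% for TG against PC, 21.1% for CL against TG and 45.8% for CL against PC, with 0 members in each. At an unadjusted p under 0.05 there were 2, 5 and 5 members, and DESeq2 called 0, 4 and 4. On day 3 the shares were 1.45%, 0.786% and 0.915%, again with 0 members in each, 0 at an unadjusted p under 0.05 and 0 with DESeq2. Without a scaling factor the calls among members were far more: 38 for any group difference and, on day 0, 6 for TG against PC, 22 for CL against TG and 81 for CL against PC. All of these day 0 calls were lower in the cultivar named first. The shares of all genes above come from the edgeR fit with TMM factors at the adjusted threshold. They are no background for the member counts at an unadjusted p, with DESeq2 or without a scaling factor. The mean log2 TMM factor on day 0 was -0.33 in CL, -0.012 in TG and 0.20 in PC. In the edgeR fit, the lack of calls between cultivars on day 0 held with TMM factors and not without a scaling factor. The members were chosen on TMM-scaled values, so calls without those factors follow in part from the choice. With DESeq2, which also scales, the counts were not all 0, and the cause was not tested.

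For day 3 against day 0, the fit called 27.4% of all genes and 2 members in TG. It called 39.6% and 1 member in PC, and 32% and 0 members in CL. In CL, 4 members had an unadjusted p under 0.05, DESeq2 called 5 and a fit without a scaling factor 19. The 32% of the fit with TMM factors is no background for these CL counts. The TG members were LOC111885262, with 87.6 and 90.5 CPM on day 0 and 67.2 and 70.8 CPM on day 3, and LOC111909443, with 70.5 and 71.8 CPM on day 0 and 56.5 and 53.2 CPM on day 3. The PC member was LOC111912553, whose values are given above. All 3 were lower on day 3 without overlap in the cultivar concerned, and their ranks by range were 94, 95 and 97. The TG count was 1 without any single day 0 library of PC or CL and 0 without any single other library, and the PC count was 0 without any of the 4 PC libraries. The replicate block left 0 in TG and 1 in PC. The largest absolute log2 difference of any member in the 9 comparisons was 0.42, that of LOC111912553 in PC.

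Among the settings tried, leaving out the scaling factor changed the membership most. With median-ratio factors in place of TMM, 83 of the 100 were chosen again, and the range of the members had a median of 0.40 and a maximum of 0.49. Without any scaling factor, 9 were chosen again, and the ranges of the members had a median of 0.68 and a maximum of 0.97, against a median of 1.44 over all eligible genes. LOC111916484, LOC111876258, LOC111919361, LOC111907340, LOC111919509, LOC111902581 and LOC111906467 were in the list under all 3 scalings, a group named after the values were seen. Of these LOC111916484 had the smallest range with TMM, 0.28, and 0.26 with median-ratio factors and 0.40 without a factor.

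Single libraries left most of the list in place. When each of the 12 was left out in turn, between 71 and 95 of the 100 were chosen again, fewest without CL day 0 replicate 2 and most without TG day 3 replicate 2. Of the members, 55 were chosen again in all 12 cases, 36 in 6 to 11 and 9 in fewer than 6. The 10 of smallest range were among the 55 apart from LOC111892944, which was chosen in 9 of 12. The 9 rarely chosen members all had a rank by range between 91 and 100, and LOC111909443, LOC111881848 and LOC111888483 were chosen in 1 case each.

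**Figure D5:**
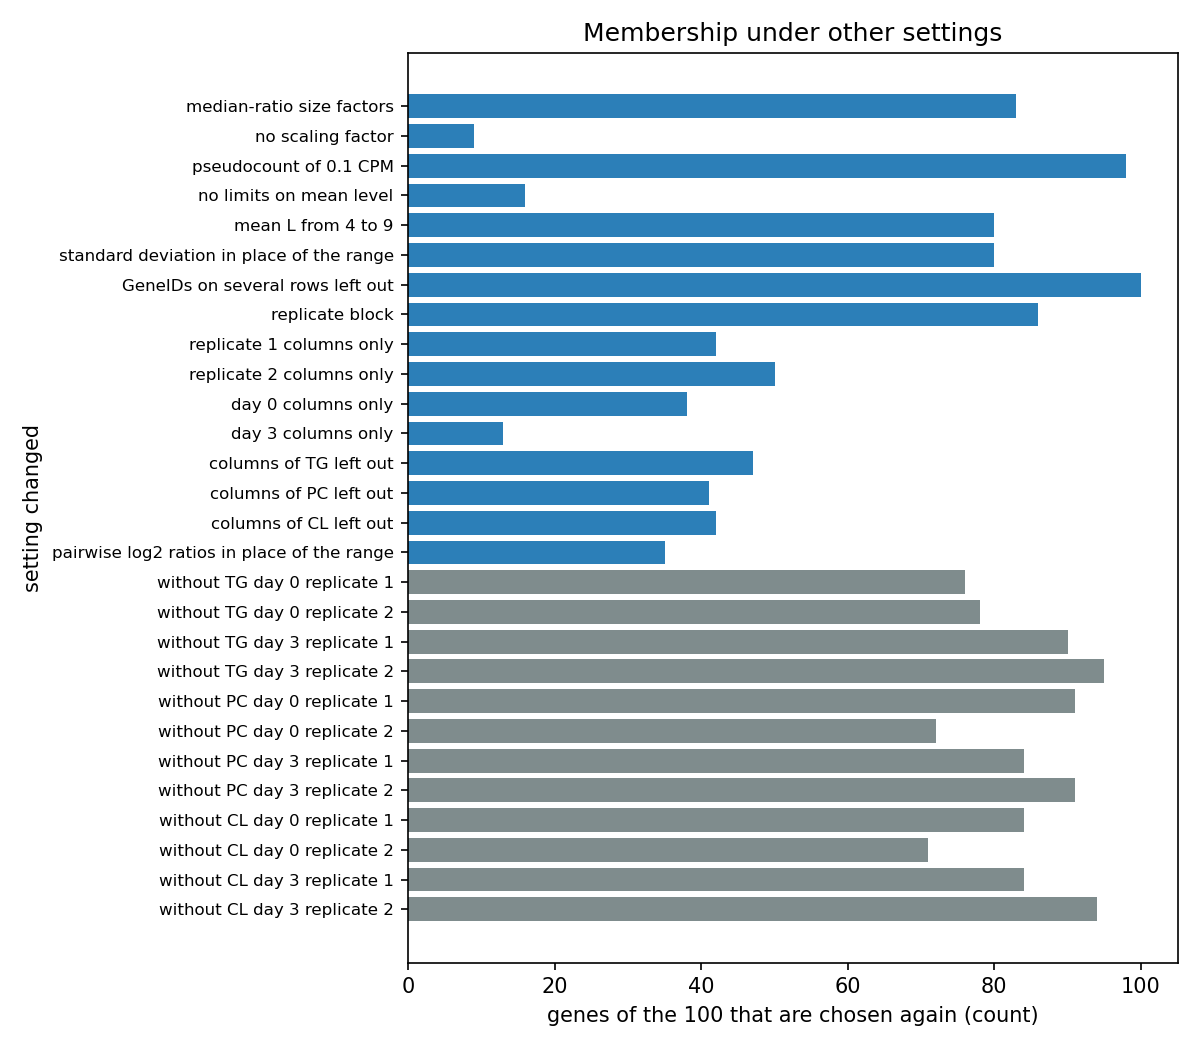
Number of the 100 members chosen again when a setting of the rule was changed. Each bar is a setting, blue for changes of scaling, level window, measure or set of libraries and grey for single libraries left out, and the horizontal axis is a count from 0 to 100. The shortest bars are those without a scaling factor (9), for day 3 libraries only (13) and without limits on mean level (16), and the grey bars lie between 71 and 95.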

How the data were processed

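Counts per NCBI GeneID were deposited by the authors for each library, 64021 rows per table, per the file headers. Per the submitters' processing notes, the tools included the aligner STAR (2.4.0i), featureCounts, Trim Galore and FastQC, with R (3.6.1) and DESeq2. Build, annotation and strand setting were not given in the sources used here, so reads of overlapping or antisense genes cannot be told apart. The authors' day 2 columns were not taken as counts but as a score: 98.8% to 99.7% of their rows with at least 200 counts on day 0 and day 3 together lay within 1 count of a factor (0.99 to 1.05) times the day 0 and day 3 mean of the same cultivar and replicate plus a constant. They entered no result.

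Counts were summed per GeneID. In all 6 groups the replicates differed beyond sampling noise (chi-square over degrees of freedom 11.2 to 85.0 on halved counts). In R 4.3.3, levels were scaled with TMM (edgeR 4.0.16) and L was taken with a pseudocount of 1 CPM. Library totals (35603537 to 59153901 counts) leave a counting SD of log2 level under 0.055 in every member, on halved counts. This covers counting error only. The p-values set differences between group means against the spread between libraries, which may be technical. For the calls, filterByExpr by group left 21757 genes, all 5212 eligible genes among them, and the 12 libraries were fitted by a robust quasi-likelihood model with 6 group means. On simulated counts the 6-group test called 13% of genes raised 2-fold in 1 group, 98% of those raised 4-fold and 0.029% of unchanged genes. All genes in this simulation had the same added spread, set in advance and not estimated from these libraries. It was wider than the replicate spread of most eligible genes, so these shares do not measure how often such changes are called here. Differences as small as those of the members, at most 1.36-fold between libraries, were not simulated. The rule chose all 100 planted genes, which by design had counting error only while the other genes had added spread. The alternatives were DESeq2 1.42.0, other scalings, pseudocount, filters, level limits and measures of spread, subsets of libraries and the replicate number as a block.

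Named by rule were the 10 members of smallest range and the 3 genes on either side of the limit. Others were named after their values were seen. The members and lists were chosen with earlier results of these data known. Word lists for functions, customary references and tissue markers needed gene descriptions and were not used here.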

Additional observations from a re-analysis of the deposited data

Results flagged for a closer look

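In 14 of the 100 members the libraries of day 3 lay without overlap above those of day 0 in a cultivar and without overlap below them in another, as they did in LOC111920703, just outside the limit. In each gene the gap is the largest non-overlapping change in mean L minus the lowest. Between TG and CL it was 0.23 for LOC111920970, with a change of 0.16 in TG and -0.068 in CL, and 0.32 for LOC111901529. The change was higher in CL than in TG by 0.34 for LOC111886391 and 0.29 for LOC111921270. PC exceeded TG by 0.29 for LOC111882494 and 0.51 for LOC111889761, and TG exceeded PC by 0.39 for LOC111914815. PC exceeded CL by 0.29 for LOC111919361, 0.28 for LOC111892920, 0.40 for LOC111921090, 0.51 for LOC111921026, 0.35 for LOC111906467 and 0.19 for LOC111920703. CL exceeded PC by 0.23 for LOC111887781 and 0.36 for LOC111913051. The lowest adjusted p of the differences in storage change between cultivars was 0.11 over these members (edgeR quasi-likelihood test, 3 differences, added after the files were seen), so none passed the threshold. Each group had 2 libraries, and 2 against 2 often do not overlap even where nothing changes. The same pattern was found in 23.2% of the other eligible genes.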

How the results depend on the processing

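Of the 100 members, fewer were chosen again without a scaling factor (9), without limits on mean level (16), in replicate 1 (42) or replicate 2 (50) libraries only, in day 0 (38) or day 3 (13) libraries only, without TG (47), PC (41) or CL (42), and by pairwise log2 ratios to all eligible genes, added after the data were seen (35). Without limits on level, 84 of the 100 chosen had a mean L under 5, down to 0.051. The replicate block kept 86. Leaving out single libraries kept 71 to 95.

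Members called without a scaling factor numbered 38 for any group difference, 6, 22 and 81 on day 0 for TG against PC, CL against TG and CL against PC, and 0 in TG, 2 in PC and 19 in CL for day 3 against day 0. DESeq2 called 7, then 4 for CL against TG and 4 for CL against PC on day 0, and 3 in PC and 5 in CL for storage. Median-ratio factors gave 2 in PC, and no filter gave 0 in TG and 0 in PC. The replicate block gave 0 in TG. The replicate numbers share no stated origin: rep 1 minus rep 2 correlated between groups across genes at -0.16 to 0.18. Leaving out single libraries gave 0 to 1 members in TG and PC for storage and 0 in the other 8 tests. For the member counts of DESeq2 and without a scaling factor, shares of all genes called in the same setting are not given here.

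For all genes, DESeq2 called 848 (TG against PC), 689 (CL against TG) and 663 (CL against PC) on day 3, where edgeR called 316, 171 and 199, and no filter gave 270 for CL against TG. Without single libraries these were 126 to 407, 60 to 280 and 60 to 307. The other counts without single libraries were 11762 to 12999 for any difference, 3813 to 6556, 2594 to 5276 and 6777 to 10165 on day 0 for TG against PC, CL against TG and CL against PC, and 2638 to 6441 in TG, 5532 to 8811 in PC and 3925 to 7320 in CL for storage. The cause was not tested. Of 368 comparisons with the reported counts, 298 stayed within 1.5 times. The ranges of customary reference genes were not run.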
